A study of Mus musculus with 7 samples.

Results

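The 9 genes described here encode enzymes of the tricarboxylic acid (TCA) cycle and its isocitrate dehydrogenase branches. They are Cs, Idh1, Idh2, Idh3a, Ogdh, Suclg1, Suclg2, Fh1 and Mdh2, chosen by name with earlier results of these data known, and all 9 were found among the 51426 genes counted. Liver mRNA was sequenced from male mice labelled C57BL/6J kept on a high-fat diet (HFD) from the age of 8 weeks, for 16 weeks in all. The groups were 3 wild-type (WT) mice and 4 mice with a whole-body TET1 knockout (TET1 KO). All 7 mice received the HFD, so no liver of a mouse on another diet was compared. The labels do not name the knockout line. The study's text writes the sequenced groups as TET1-/- and TET1 wt/wt, and its methods list B6;129S4-Tet1tm1.1Jae/J as the purchased TET1 knockout, beside a second whole-body knockout made with floxed TET1 and β-actin Cre. Library sizes lay between 15005277 and 22746138 counts. Tet1 had 1, 4 and 1 counts in WT and 2, 1, 4 and 1 counts in TET1 KO livers, too few to be tested or to check the genotype labels, so no fold change is given.

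The TCA cycle runs in the mitochondrial matrix. It condenses acetyl-CoA with oxaloacetate to citrate, oxidises citrate through isocitrate and α-ketoglutarate to succinate, fumarate and malate, and so regenerates oxaloacetate while passing electrons to the respiratory chain. In the liver the same intermediates also feed gluconeogenesis, fatty acid synthesis and amino acid metabolism. TET enzymes, which oxidise 5-methylcytosine in DNA, use α-ketoglutarate as a co-substrate, and succinate and fumarate are known inhibitors of this class of enzyme. The comparison of TET1 KO with WT livers therefore asks whether transcripts of the enzymes that make and use this co-substrate differed between the genotypes.

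All 9 genes had a lower fitted level in TET1 KO livers, but none passed the test. By edgeR's quasi-likelihood test with Benjamini-Hochberg adjustment over 14754 genes, 0 of 9 had an adjusted p under 0.05, where 1.15% of all genes tested were called lower and 0.874% higher (2.02% in either direction). At an unadjusted p under 0.05, 4 of the 9 were lower (Idh2, Cs, Suclg1 and Suclg2) and none was higher, against 12.7% of all genes lower and 13.6% higher. This count was 2 without WT replicate 1, where 4293 of 15002 genes had such a p in either direction. It was also 2 without WT replicate 2 (2069 of 14920 genes), and 6 with scaling to library size only (4008 of 14754). In the main fit 3876 of 14754 genes had such a p. DESeq2, the other tool run, called 1 of the 9 lower, Idh2, against 4.75% of all genes lower and 4.27% higher. The median log2 fold change of the 9 genes was -0.33, within a range of -0.62 to -0.06, while the median over all genes tested was 0.01. Of all genes tested, 48.9% had a fitted fold change below 0 and 51.1% above. Fewer cells of a type and less RNA per cell cannot be told apart in whole-liver RNA, and the p-values measure the spread between these 7 mice.

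Upstream sequence is shown for 3 of the genes, because TET enzymes act on cytosines in CG pairs: Idh2 had the largest fitted difference of the 9, Fh1 the smallest, and Mdh2 carried a repeated motif. The sequences are those of RefSeq on GRCm38.p6, the 250 bases before an annotated start, 5′ to 3′ on the strand of the gene, with each CG pair in capitals. The windows of Mdh2 and Fh1 adjoin the outer limit of the gene. The only start given for Idh2 lies inside the outer limits of the gene (80094845 to 80118608), so its window is upstream of that start and not of the whole gene. Windows were given for 8 of the 9 genes, 14 windows in all, and Idh3a had none. They lie at chr7:80115351-80115600 (minus strand) for Idh2, at chr5:135778399-135778648 (plus strand) for Mdh2 and at chr1:175625636-175625885 (minus strand) for Fh1.
Idh2: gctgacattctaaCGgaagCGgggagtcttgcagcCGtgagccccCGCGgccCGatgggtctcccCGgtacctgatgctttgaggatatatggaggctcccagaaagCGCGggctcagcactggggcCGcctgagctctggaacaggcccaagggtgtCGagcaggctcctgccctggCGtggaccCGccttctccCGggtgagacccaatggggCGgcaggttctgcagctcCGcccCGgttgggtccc
Mdh2: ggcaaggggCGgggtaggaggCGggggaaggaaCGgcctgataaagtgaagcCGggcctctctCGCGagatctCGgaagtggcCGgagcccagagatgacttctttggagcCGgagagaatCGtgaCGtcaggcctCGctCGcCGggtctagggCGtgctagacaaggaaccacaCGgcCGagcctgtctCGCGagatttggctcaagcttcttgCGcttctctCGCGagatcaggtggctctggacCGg
Fh1: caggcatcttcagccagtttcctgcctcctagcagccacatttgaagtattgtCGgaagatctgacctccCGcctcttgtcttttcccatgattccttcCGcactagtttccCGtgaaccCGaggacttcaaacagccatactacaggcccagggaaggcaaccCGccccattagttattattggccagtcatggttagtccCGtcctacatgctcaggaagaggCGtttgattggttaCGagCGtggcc
The windows above held 17 CG pairs for Idh2, 23 for Mdh2 and 10 for Fh1. Over the 14 windows the count ran from 8 (Suclg2) to 35 (an internal start of Ogdh) with a median of 17.5, and all 14 lay at or above the median of 6 over 32851 promoters. Methylation was not analysed here.

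A set of 6 short motifs, none of which contains another, was searched on both strands of the windows. The palindrome CTCGCGAG occurred 3 times upstream of Mdh2 and was absent from the windows of the other 7 genes, and 0.761% of all promoters held it. CCAAT was present in 9 of the 14 windows (33.8% of all promoters), as was GGGCGG (32.7%), though 6 of the windows belong to Ogdh and several of these overlap. TGACGTCA was found in 4 windows, of Mdh2 and Ogdh (1.55% of all promoters). GCATGCGC was present in 2 internal windows of Ogdh (2.26%), and TCAAGGTCA in none of the 14 (0.387%). CCAAT and GGGCGG are short, and a match describes only the letters of the window.

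Summed over the 9 genes, the level was 1470, 1609 and 1443 CPM (counts scaled to a common library size after TMM normalization) in WT replicates 1 to 3. In TET1 KO replicates 1 to 4 it was 1022, 1285, 1209 and 1362 CPM. The groups did not overlap in this sum, with means of 1507 ± 89.0 (SD, n = 3) and 1220 ± 145 (SD, n = 4), and it was not tested. The 9 transcripts took up between 0.146% and 0.171% of the counts of a WT library and between 0.100% and 0.138% of a TET1 KO library. TET1 KO replicate 1 was the lowest liver for 6 of the 9 genes, and WT replicate 2 was the highest for 6. These were also the livers at the ends of the first principal component of all genes, which held 48.7% of the variance. Without TET1 KO replicate 1 the median log2 fold change of the 9 genes was -0.24, and without WT replicate 2 it was -0.32.

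**Figure D1:**
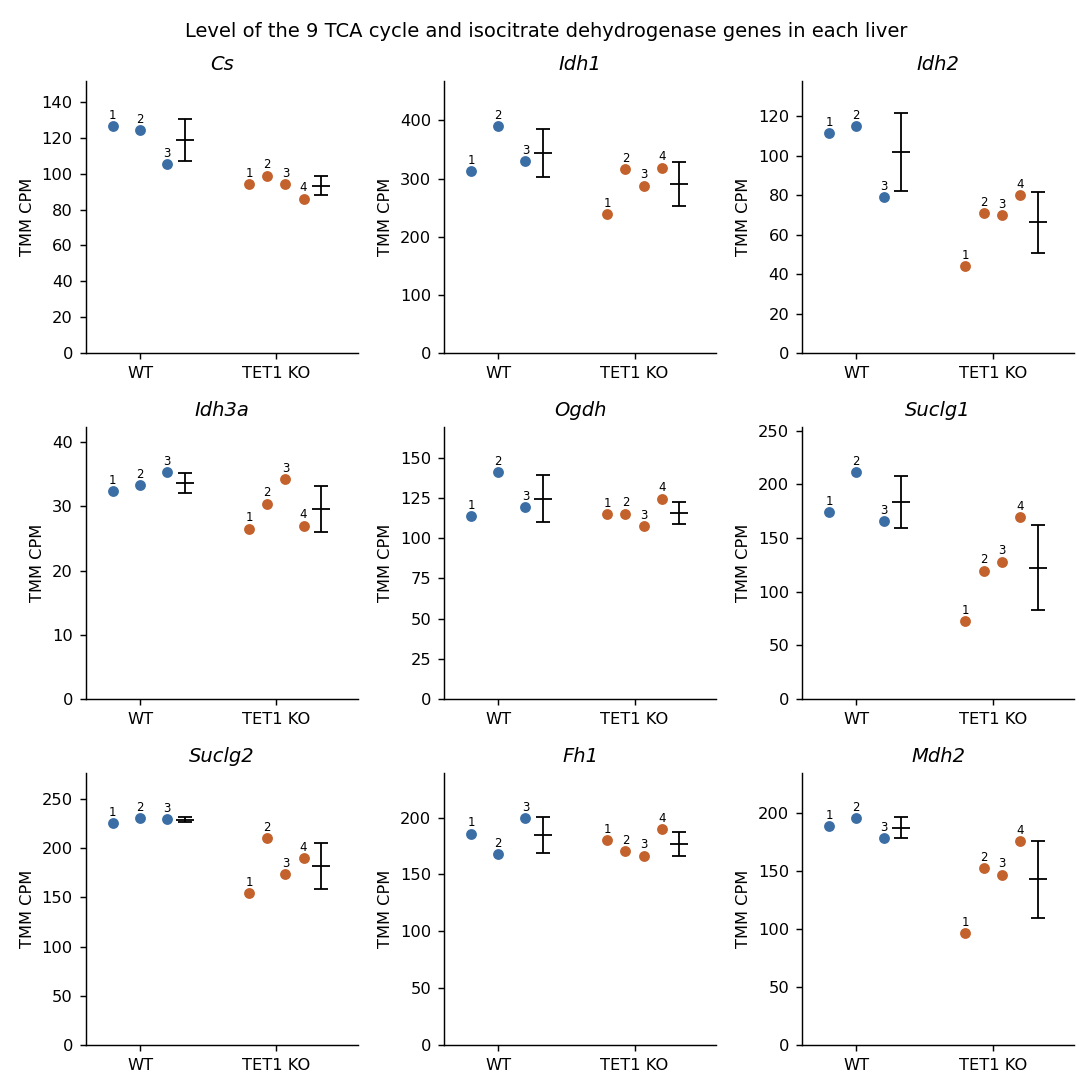
Level of each of the 9 genes in every liver, in TMM-normalized CPM on a linear axis from 0, with WT and TET1 KO replicates numbered and bars for the mean ± SD (n = 3 and n = 4). The TET1 KO livers lie below all WT livers for Cs, Suclg2 and Mdh2, and overlap with them for the other 6 genes.

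Cs encodes citrate synthase, which joins acetyl-CoA and oxaloacetate at the entry of the cycle (chromosome 10, 128337727 to 128362482 in GRCm38). WT livers had 126, 124 and 105 CPM and TET1 KO livers 94.0, 98.9, 94.2 and 86.1 CPM. The groups did not overlap, and the 4 TET1 KO livers lay within a narrow band. The fitted log2 difference was -0.35 ± 0.12 (fitted value ± standard error, as in the following, 95% confidence interval -0.62 to -0.08, edgeR adjusted p = 0.116), and DESeq2 gave an adjusted p of 0.0648. Cs was 1 of 3 genes of the 9 whose TET1 KO livers all lay below the WT livers, with Suclg2 and Mdh2, and 10.8% of all genes tested had this pattern.

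The isocitrate dehydrogenases convert isocitrate to α-ketoglutarate. Idh1 encodes the NADP-dependent enzyme of the cytosol and peroxisomes, Idh2 the NADP-dependent enzyme of mitochondria, and Idh3a the catalytic subunit of the NAD-dependent enzyme of the cycle proper. Among these 3 genes the largest fitted difference was that of Idh2.

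Idh2 (chromosome 7, 80094845 to 80118608) had 111, 115 and 79.1 CPM in WT livers and 44.3, 71.0, 69.8 and 80.2 CPM in TET1 KO livers. TET1 KO replicates 1 to 3 lay beneath the whole WT range, and replicate 4 lay just above WT replicate 3, so the groups overlapped. The level in TET1 KO livers was 0.652 of that in WT livers (log2 difference -0.62 ± 0.20, 95% confidence interval -1.06 to -0.17). The edgeR adjusted p was 0.0998 and the DESeq2 adjusted p 0.0473, and across all alternatives the adjusted p ran from 0.0473 to 0.358, the highest without WT replicate 2. Leaving out TET1 KO replicate 1, the lowest liver, gave a log2 difference of -0.46 (edgeR adjusted p = 0.138).

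Idh1 (chromosome 1, 65158616 to 65186479) had the highest level of the 9 genes per length, and in CPM stood at 312, 390 and 330 CPM in WT and 239, 316, 288 and 319 CPM in TET1 KO livers. The groups overlapped, with 2 TET1 KO livers inside the WT range. This gave a log2 difference of -0.24 ± 0.15 (95% confidence interval -0.58 to 0.09, edgeR adjusted p = 0.323). It was -0.15 without WT replicate 2 and -0.16 without TET1 KO replicate 1.

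Idh3a (chromosome 9, 54586511 to 54604662) had the lowest level per length, with 32.3, 33.4 and 35.3 CPM in WT livers and 26.5, 30.4, 34.3 and 27.0 CPM in TET1 KO livers. Only TET1 KO replicate 3 reached the WT range. On the log2 scale the fitted difference was -0.19 ± 0.13 (95% confidence interval -0.48 to 0.10, edgeR adjusted p = 0.377). The other subunits of the NAD-dependent enzyme, Idh3b and Idh3g, had fitted log2 differences of -0.07 and 0.14, and neither passed the test. Both were named after their values were seen.

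Ogdh encodes the E1 subunit of the α-ketoglutarate dehydrogenase complex, which consumes α-ketoglutarate in the cycle (chromosome 11, 6291597 to 6359094). WT livers had 114, 141 and 119 CPM and TET1 KO livers 115, 115, 108 and 125 CPM, and the groups overlapped. edgeR fitted a log2 difference of -0.11 ± 0.13 (95% confidence interval -0.39 to 0.17, edgeR adjusted p = 0.608). Leaving out WT replicate 2 brought it to -0.02, and leaving out WT replicate 1 to -0.18.

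Succinyl-CoA ligase converts succinyl-CoA to succinate. Suclg1 encodes its α subunit, which pairs either with the GTP-forming β subunit encoded by Suclg2 or with the ATP-forming β subunit encoded by Sucla2. Both Suclg1 and Suclg2 lie on chromosome 6, at 73248505 to 73276907 and at 95473009 to 95718858.

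Suclg1 had 174, 211 and 166 CPM in WT livers and 72.9, 120, 128 and 169 CPM in TET1 KO livers. The spread was widest here, with TET1 KO replicate 1 less than any other liver and replicate 4 inside the WT range. Its coefficient of variation among TET1 KO livers, 32.3%, was the highest of the 9 genes. Between the genotypes the log2 difference was -0.58 ± 0.23 (95% confidence interval -1.10 to -0.07, edgeR adjusted p = 0.147), and it was -0.40 without TET1 KO replicate 1 (edgeR adjusted p = 0.189).

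Suclg2 was the most even gene among WT livers, at 226, 231 and 230 CPM (coefficient of variation 1.13%). TET1 KO livers had 155, 210, 174 and 190 CPM, all below the WT livers. The fitted log2 difference was -0.33 ± 0.14 (95% confidence interval -0.63 to -0.03, edgeR adjusted p = 0.159).

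Fh1 encodes fumarate hydratase, which turns fumarate into malate (chromosome 1, 175601378 to 175625635). WT livers had 186, 168 and 200 CPM and TET1 KO livers 180, 170, 166 and 190 CPM, and the groups overlapped over most of their range. The log2 difference of -0.06 ± 0.13 was the smallest of the 9 (95% confidence interval -0.34 to 0.21, edgeR adjusted p = 0.772), and it ran from -0.13 without WT replicate 2 to -0.02 without WT replicate 3.

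Mdh2 encodes the mitochondrial malate dehydrogenase, which closes the cycle at oxaloacetate (chromosome 5, 135778649 to 135790386). WT livers had 189, 196 and 178 CPM and TET1 KO livers 96.4, 153, 147 and 176 CPM. The groups did not overlap, although TET1 KO replicate 4 lay just below WT replicate 3, and replicate 1 stood well below the rest. This gave a log2 difference of -0.39 ± 0.18 (95% confidence interval -0.80 to 0.01, edgeR adjusted p = 0.200). It was -0.24 without TET1 KO replicate 1 (edgeR adjusted p = 0.268).

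**Figure D2:**
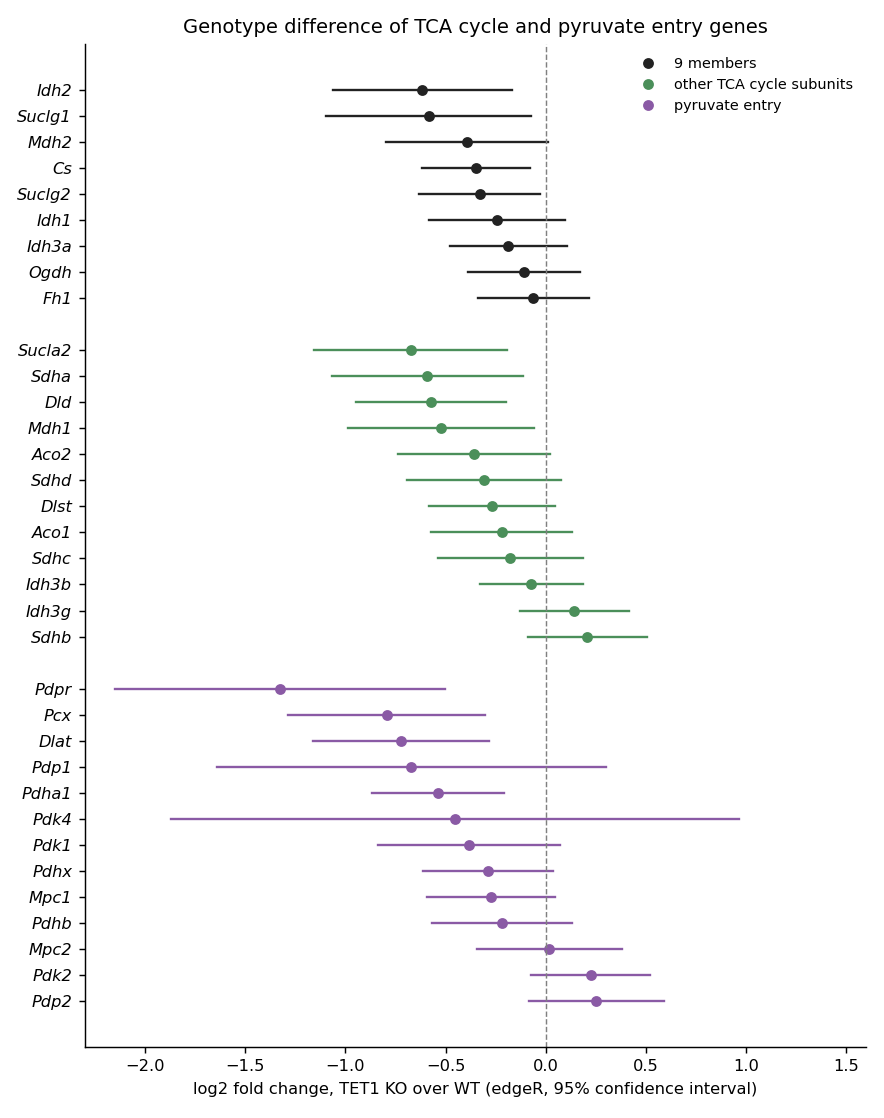
Fitted log2 fold change (TET1 KO over WT) of each gene, with its 95% confidence interval derived from edgeR's test. Separate colours mark the 9 genes, 12 further genes of the cycle or its cytosolic counterparts, and 13 genes of pyruvate entry. The estimates of the 9 genes all lie below 0. Among these 9, the intervals of Idh2, Suclg1, Cs and Suclg2 do not reach 0, although none had an adjusted p under 0.05 in edgeR.

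The genes differed in how far each liver stood from the mean. On the log2 CPM scale, the deviation of TET1 KO replicate 1 from the mean of the 7 livers was -0.96 for Suclg1, -0.82 for Idh2 and -0.72 for Mdh2, and only -0.05 for Ogdh and 0.00 for Fh1. Averaged over the 9 genes the deviation was -0.41 in this liver, and the other TET1 KO livers lay at -0.06, -0.11 and 0.01. WT livers lay at 0.17, 0.28 and 0.12, so the averages of the groups did not overlap. TET1 KO replicate 4, at 0.01, was nearest to the WT livers.

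**Figure D3:**
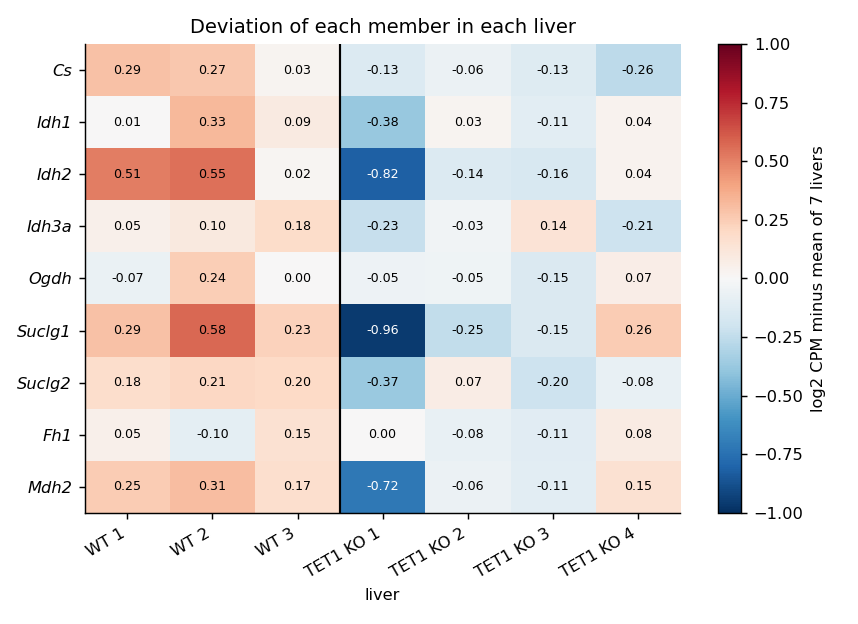
Deviation of each gene (rows) in each liver (columns) from its mean over the 7 livers, in log2 CPM, blue below and red above the mean. The largest deviations are those of Suclg1, Idh2 and Mdh2 in TET1 KO replicate 1, and Fh1 and Ogdh are near 0 in that liver.

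Per kilobase of exon, the order of the levels was the same in both groups. Idh1 was first at 136 ± 16.0 CPM per kb in WT livers (SD, n = 3), followed by Mdh2 at 89.9 ± 4.24, Suclg2 at 67.5 ± 0.760 and Fh1 at 54.4 ± 4.70. Cs (41.9 ± 4.08), Suclg1 (39.8 ± 5.24) and Idh2 (39.3 ± 7.58 CPM per kb) lay within each other's spread. Ogdh (22.8 ± 2.66) and Idh3a (13.3 ± 0.599 CPM per kb) were last. In TET1 KO livers Suclg2 (53.7 ± 6.96) and Fh1 (52.1 ± 3.06 CPM per kb, SD, n = 4) were closer than their spread, and Suclg2 was the higher of the pair in 5 of the 7 livers. Suclg1 exceeded Idh2 in 4 of the 7 livers, so these neighbours did not differ beyond their spread. Exon lengths came from another annotation release than the counts, which limits levels between genes but not differences between livers.

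Ratios of counts within a library, which do not depend on scaling, were compared for 3 pairs of genes. The Idh1 to Idh2 ratio was 2.81, 3.40 and 4.17 in WT livers and 5.39, 4.46, 4.13 and 3.98 in TET1 KO livers, and the groups overlapped. The log2 ratio was 0.38 higher in TET1 KO livers (exact two-sided permutation test, p = 0.114, Benjamini-Hochberg adjusted p = 0.229 over the 3 ratios), and 0.24 higher without WT replicate 1. The Idh2 to Idh3a ratio was 3.44, 3.44 and 2.24 in WT livers and 1.67, 2.33, 2.04 and 2.97 in TET1 KO livers. This is a log2 difference of -0.44, and the groups overlapped (exact permutation p = 0.171, adjusted p = 0.229). For Suclg2 to Sucla2, the ratio of the 2 β subunits, the log2 difference was 0.33 (exact permutation p = 0.229, adjusted p = 0.229). It was 0.14 without WT replicate 2 and 0.51 without WT replicate 1. With 3 and 4 mice the smallest p this test can give is 0.0286 before adjustment, so a single ratio could not have passed 0.05 after adjustment over the 3, and a p above the threshold does not show that the ratios were alike.

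**Figure D4:**
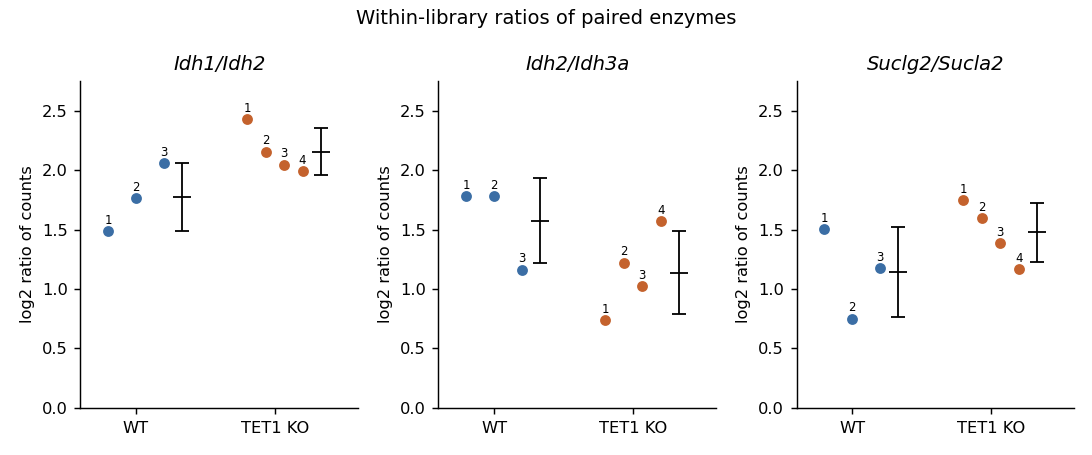
Ratio of counts within each library, on a log2 scale, for Idh1 to Idh2, Idh2 to Idh3a and Suclg2 to Sucla2 in every liver, with the mean ± SD of each group (n = 3 and n = 4). The groups overlap in all 3 ratios.

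Other genes of the cycle and of its neighbouring pathways were described from lists chosen by function. A list of 12 further genes covered the rest of the cycle and its cytosolic counterparts, and 0 of them passed edgeR's test. At an unadjusted p under 0.05, 4 were lower (12.7% of all genes), and DESeq2 called 2 lower (4.75% of all genes). Their median log2 fold change was -0.29. Dld, the E3 subunit that the α-ketoglutarate and pyruvate dehydrogenase complexes share, had 88.4, 131 and 106 CPM in WT livers and 57.1, 78.4, 72.3 and 83.7 CPM in TET1 KO livers. These groups did not overlap (log2 difference -0.57 ± 0.17, adjusted p = 0.0839 in edgeR and 0.0319 in DESeq2). Sucla2 differed by -0.67 ± 0.22 on the log2 scale (adjusted p = 0.0979 in edgeR and 0.0419 in DESeq2), and its groups overlapped. The other 2 genes at an unadjusted p under 0.05 were Sdha, the flavoprotein of succinate dehydrogenase (log2 fold change -0.59, edgeR adjusted p = 0.125), and Mdh1, the cytosolic malate dehydrogenase (-0.52, edgeR adjusted p = 0.151), both named after their values were seen. Sdhb and Idh3g, with values of 0.21 and 0.14, were the members of this list with a fold change above 0, and were likewise named after their values were seen.

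Genes of pyruvate entry had a median of -0.38 over the 13 of 14 tested, and 0 passed edgeR's test. At an unadjusted p under 0.05, 4 of them were lower and none higher (12.7% and 13.6% of all genes), and DESeq2 called the same number lower (4.75% of all genes). Dlat and Pdha1, the E2 and E1α subunits of the pyruvate dehydrogenase complex, had log2 differences of -0.72 ± 0.20 (adjusted p = 0.0753 in edgeR and 0.0184 in DESeq2) and -0.54 ± 0.15 (adjusted p = 0.0766 and 0.0222). Neither gene showed any overlap between the groups. The others that DESeq2 called, Pcx and Pdpr, were named after their values were seen. Pcx, pyruvate carboxylase, differed by -0.79 on the log2 scale without overlap (adjusted p = 0.0778 in edgeR and 0.0120 in DESeq2). Pdpr, a regulatory subunit of pyruvate dehydrogenase phosphatase, differed by -1.33 (adjusted p = 0.0778 in edgeR and 0.0198 in DESeq2). Its groups overlapped, and its level was low and uneven in WT livers (4.44 ± 2.53 CPM, SD, n = 3).

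Among genes that make or use glutamate and α-ketoglutarate, 17 of 19 were tested and 0 passed edgeR's test. At an unadjusted p under 0.05, 2 were higher and 1 lower, near or below the shares of all genes (13.6% and 12.7%). The median was -0.12, and DESeq2 called 1 higher and 1 lower (4.27% and 4.75% of all genes). Dhtkd1, the E1 subunit of the α-ketoadipate dehydrogenase complex and a relative of Ogdh, had 72.5, 58.9 and 81.4 CPM in WT and 106, 116, 119 and 82.2 CPM in TET1 KO livers. The groups did not overlap (log2 difference 0.58 ± 0.17, adjusted p = 0.0794 in edgeR and 0.0313 in DESeq2). Bcat2, a branched-chain aminotransferase, differed by 0.60 ± 0.21 on the log2 scale (edgeR adjusted p = 0.109). Glud1, glutamate dehydrogenase, which forms α-ketoglutarate from glutamate, was the gene DESeq2 called lower (-0.46, DESeq2 adjusted p = 0.0316, edgeR adjusted p = 0.122) and was named after its values were seen.

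Of 12 tested genes of citrate export, malate and NADPH, 2 were called lower in TET1 KO livers and none higher (1.15% and 0.874% of all genes), and their median was -0.10. Me1 encodes the cytosolic malic enzyme, which turns malate into pyruvate and makes NADPH for fatty acid synthesis. It fell from 148, 260 and 105 CPM in WT livers to 35.2, 13.8, 16.3 and 58.9 CPM in TET1 KO livers, without overlap. On the log2 scale the fitted difference was -2.46 ± 0.46 (edgeR adjusted p = 0.0271), and the adjusted p ran from 0.00491 to 0.149 across alternatives, being over 0.05 with robust dispersions (0.0765), without WT replicate 2 (0.149) and without TET1 KO replicate 1 (0.0562), 2 (0.0568) or 3 (0.0735).

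Nnt encodes the transhydrogenase of the inner mitochondrial membrane, which makes mitochondrial NADPH as Idh2 does. It fell from 47.4, 49.5 and 45.0 CPM in WT livers to 13.0, 28.9, 25.4 and 17.1 CPM in TET1 KO livers, and the groups were far apart. edgeR fitted a log2 difference of -1.17 ± 0.23 (edgeR adjusted p = 0.0335, DESeq2 adjusted p = 0.000208). The edgeR adjusted p was over 0.05 without WT replicate 1 (0.0533), 2 (0.149) or 3 (0.0552) and without TET1 KO replicate 3 (0.0660), and the log2 fold change lay between -1.37 and -0.99 whichever mouse was left out. C57BL/6J mice are known to carry a deletion within Nnt. The labels give this strain for all 7 mice and no Nnt allele, the name of the knockout line in the methods is that of a mixed background, and the methods state a C57BL/6J origin or backcross for the floxed and Cre lines. The study describes its controls for the TET1 KO mice as littermates, and the labels do not say which mice shared a litter. Genotype at Tet1 and genetic background cannot be told apart from these counts. Pck2, the mitochondrial phosphoenolpyruvate carboxykinase, differed by 0.98 ± 0.29 on the log2 scale (adjusted p = 0.0854 in edgeR and 0.0419 in DESeq2), from 1.62 to 3.49 CPM in WT and 3.58 to 6.03 CPM in TET1 KO livers. Acly, which cleaves exported citrate to acetyl-CoA, differed by -0.75 ± 0.36 on the log2 scale (edgeR adjusted p = 0.215), and its groups overlapped. Without WT replicate 2, its highest liver, the difference was -0.25.

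**Figure D5:**
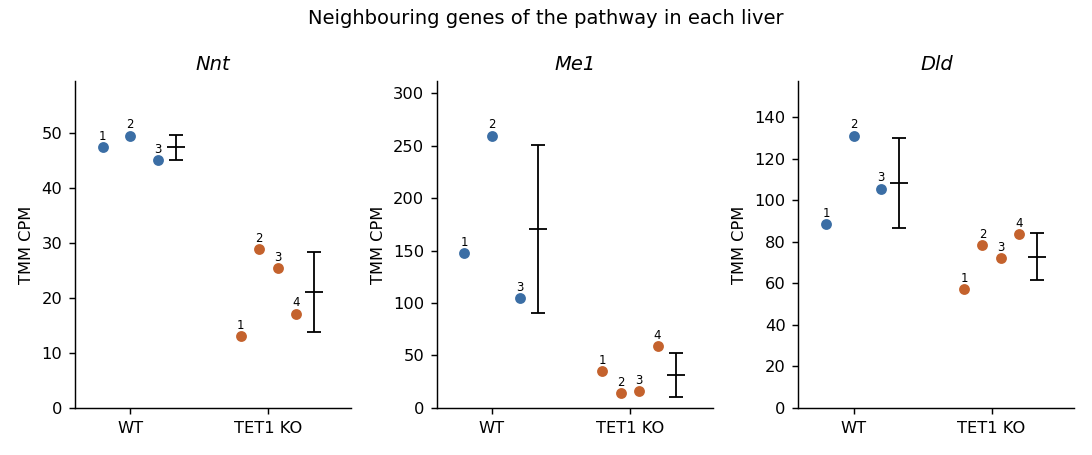
Level of Nnt, Me1 and Dld in every liver, in TMM-normalized CPM on linear axes from 0, with bars for the mean ± SD (n = 3 WT and n = 4 TET1 KO). The TET1 KO points lie below the WT points for all 3 genes, and Nnt and Me1 passed edgeR's test at an adjusted p under 0.05 while Dld (0.0839) did not.

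The α-ketoglutarate-dependent dioxygenases, which share the co-substrate with TET1, had a median log2 fold change of 0.01 over the 21 of 22 tested. By edgeR 0 passed, with 3 higher and 3 lower at an unadjusted p under 0.05 (13.6% and 12.7% of all genes), and DESeq2 called 2 lower (4.75% of all genes). Both of these are enzymes of carnitine synthesis. Tmlhe, the first of the pathway, had 9.70, 14.2 and 8.17 CPM in WT and 1.94, 4.44, 6.04 and 3.99 CPM in TET1 KO livers, without overlap (log2 difference -1.38 ± 0.32, adjusted p = 0.0518 in edgeR and 0.00188 in DESeq2). Bbox1, the last of the pathway, differed by -0.56 ± 0.17 on the log2 scale (adjusted p = 0.0886 in edgeR and 0.0358 in DESeq2), also without overlap. In this list 2 genes were lower without overlap (10.8% of all genes) and 4 were higher without overlap (11.7%). The higher ones, Alkbh1, Alkbh7, Kdm3a and Kdm5a, were named after their values were seen. Tet1, with 1 to 4 counts, was the member of the list left untested. Tet2 differed by -0.01 on the log2 scale (edgeR adjusted p = 0.984), with no stable direction (-0.24 to 0.27 when each mouse was left out), and Tet3 by 0.32 (edgeR adjusted p = 0.223).

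The genes with the profile most like that of Idh2 over the 7 livers were Dhrs7, Gm10359 and Gm5559. Their root mean square differences of centred log2 CPM from Idh2 were 0.0841, 0.0843 and 0.0880, where the median over the 14745 genes compared was 0.513. The mean profile of the 9 genes was most like those of Laptm4a (0.0331), Uqcrc2 (0.0385) and Crls1 (0.0449), against a median of 0.354. Uqcrc2 encodes a core subunit of respiratory complex III and Crls1 the mitochondrial cardiolipin synthase. All profiles come from the same 7 libraries, and the likeness is a description.

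The liver label was checked against hepatocyte markers, whose summed level was 66502 to 87527 CPM in WT and 78491 to 88620 CPM in TET1 KO livers, with 0 of 8 called by edgeR and 1, Apoa1, higher at an unadjusted p under 0.05 (log2 difference 1.10). Of the cholangiocyte markers, 0 of 5 were called and 4 were higher at an unadjusted p under 0.05 (13.6% of all genes), with a summed level of 29.7 to 37.8 CPM in WT and 46.1 to 68.0 CPM in TET1 KO livers. Krt19 and Epcam were high in TET1 KO replicate 4 alone, at 6.68 and 4.87 CPM, against at most 1.69 and 0.986 CPM in the other TET1 KO livers. Spp1 and Sox9 made up most of the sum, at 30.7, 43.7, 32.3 and 39.2 CPM and at 12.6, 20.9, 14.9 and 9.46 CPM in TET1 KO replicates 1 to 4, and Sox9 was lowest of these in replicate 4. Endothelial markers summed to 167 to 181 CPM in WT and 142 to 164 CPM in TET1 KO livers (0 of 6 called, 1 lower at an unadjusted p under 0.05, against 12.7% of all genes). Lyve1 (log2 difference -1.08) was the endothelial marker at that p. Pecam1 (-0.42) and Ehd3 (-0.34) had lower fitted levels, and Stab2 (-0.08), Clec4g (-0.02) and Kdr (0.09) differed little. Of the stellate cell and fibroblast markers, 0 of 7 were called and 2 were lower at an unadjusted p under 0.05 (12.7% of all genes), Col1a1 (log2 difference -0.96) and Col3a1 (-0.99), while their sum overlapped between the groups (219 to 366 CPM in WT and 206 to 281 CPM in TET1 KO livers). The part of these markers in the differences was not tested. Sums of macrophage and lymphocyte markers overlapped as well, with 0 markers called and 0 at an unadjusted p under 0.05. Each of the 4 adipocyte markers was at 0 in at least 1 library, and their sum lay between 0 and 1.24 CPM in WT and between 0 and 10.8 CPM in TET1 KO livers. The 10.8 CPM were those of TET1 KO replicate 2, where Adipoq had 4.23 and Plin1 4.93 CPM, and no more than 0.0928 CPM of any of the 4 was seen in another TET1 KO liver.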

How the data were processed

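The authors deposited a table of raw read counts per gene for each mouse, made with featureCounts 1.5.3 after trimming with Trimmomatic 0.36 and alignment with GSNAP to GRCm38, per the submitters' processing notes. RNA was enriched by poly(A) selection or rRNA depletion and made into stranded libraries, per the labels. The strand and multi-mapping settings of the counting are not given in the sources used here, so overlapping genes and near-identical copies remain uncertain. Tables were joined by Ensembl identifier, because 26 symbols had been turned into dates, and 5 repeated identifiers were left out.

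Counts of the 7 livers were fitted in R 4.3.3 with edgeR 4.0.16 (filterByExpr, TMM, glmQLFit and glmQLFTest, no covariate), which tested 14754 genes with a common biological coefficient of variation of 0.208. The threshold for a call was an adjusted p (Benjamini-Hochberg) under 0.05. Log2 CPM used a prior count of 2. Ratios were compared by exact permutation over the 35 splits of the mice. Exon lengths came from GENCODE M1, matched by identifier, and gene coordinates and promoters from RefSeq GRCm38.p6. The script was tested on simulated data. Alternatives were DESeq2 1.42.0, RLE size factors, library size only, no filter, robust dispersions, a minimum of 10 counts in each library, a block on the replicate number and leaving out each mouse. The labels give no batch or date, and no pair of libraries within a group was alike within sampling noise (lowest chi-square per degree of freedom 25.0).

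The 9 genes and the lists were chosen with earlier results of these data known. The genes named are the 9, every called gene of a pathway list and, beyond these, the 2 genes of that list with the smallest p, Tet1, Tet2, Tet3, Nnt and Sucla2, and the 3 genes nearest in profile to the gene of the 9 with the smallest p and to the mean of the 9. Other pathway genes are marked as named after their values were seen, and so were single markers chosen. Plots were made in Python 3.11 with matplotlib 3.10.9.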

Additional observations from a re-analysis of the deposited data

Results flagged for a closer look

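Among 34 items examined for a single far liver, 1 was marked. Tet3, a paralogue of Tet1, had 26.0, 24.7, 26.0 and 18.0 CPM in TET1 KO replicates 1 to 4. The gap between replicate 4 and the nearest of the others was 0.833 of the range of the group, above Dixon's 95% critical value for 4 samples. Chance alone marks about 1 in 20 groups in this way. WT livers had 19.6, 17.8 and 19.6 CPM, so TET1 KO replicate 4 lay within the WT range and the other TET1 KO livers above it. No value of the 9 genes was marked.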

How the results depend on the processing

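All 9 genes kept a fitted fold change below 0 under each of the 14 alternatives. Of 126 such values, 124 stayed on the same side of the threshold, and 2 passed it: Idh2 in DESeq2 (adjusted p = 0.0473) and Suclg1 with the replicate block (adjusted p = 0.0378), which make the 1 gene called lower by each. Scaling to library size only moved the median of all genes to -0.08 and that of the 9 genes to -0.42.

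Over all genes, 129 were called higher and 169 lower. The counts were 628 and 698 in DESeq2, 245 and 347 with no filter, 670 and 656 with the replicate block, and 107 and 312 with library size only, and they ran from 16 to 427 higher and from 22 to 464 lower when each mouse was left out, lowest without WT replicate 2 and highest without TET1 KO replicate 4. Of the further genes of the cycle and its cytosolic counterparts, DESeq2 called 2 lower and the block 3. For pyruvate entry these counts were 4 and 3 lower (0 to 2 without each mouse), for glutamate turnover 1 and 1 higher (0 to 1) and 1 and 1 lower. For citrate export, malate and NADPH, DESeq2 called 1 higher, robust dispersions called 1 lower, and leaving out each mouse gave 0 to 2 lower. For the dioxygenases the block called 1 higher (0 to 1 without each mouse), and 1 was lower with library size only, 2 in DESeq2, 1 with no filter and 2 with the block. Tet2 turned above 0 with the block (0.11) and ran from -0.24 to 0.27 when each mouse was left out. For these changes the cause was not tested.

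The mice share only replicate numbers. Deviations of same-numbered livers correlated at 0.21, -0.12 and -0.10, so the block was not taken as a pairing. With 3 and 4 livers, the 95% intervals of the 9 genes still allow log2 differences down to -1.10 and up to 0.21. Tet1, at 1 to 4 counts, was below what this depth can compare.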
